A study of Drosophila melanogaster with 6 samples.

Results

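The core genes of the Notch pathway were compared between antennae of control flies and of flies carrying an RNA interference construct against *Eip93F*, which encodes the transcription factor E93. The genes were chosen by symbol from a list of 10, which are the receptor *N*, the ligands *Dl* and *Ser*, the ligand-activating ligases *neur* and *mib1*, the glycosyltransferase *fng*, the inhibitor *numb*, and the nuclear factors *Su(H)*, *mam* and *H*. All 10 were found among the 17698 gene identifiers counted, and all 10 passed the filter on low counts that left 9237 genes for testing. *Dl* is listed as *Delta* in the symbol table used.

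Notch is a receptor at the cell surface that is activated by Delta or Serrate on a neighbouring cell. Ligand uptake, driven by the ubiquitin ligases Neuralized and Mind bomb 1, pulls on the receptor and exposes it to cleavage. The released intracellular part enters the nucleus, where it joins Suppressor of Hairless and Mastermind to switch on target genes. In its absence Suppressor of Hairless acts with Hairless as a repressor. In the pupal antenna, Notch signalling between daughter cells of a sensory precursor separates the sister neurons of a sensillum and the support cells that surround them, and Numb blocks the pathway in the daughter that inherits it.

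RNA came from antennae of adult *Drosophila melanogaster* females aged 2 to 5 days, taken long after those divisions, with 3 libraries of each group. Per the labels' protocols, both groups carried a single copy of peb-Gal4 (a Gal4 driver at the *pebbled* gene) and UAS-Dcr2 (an enzyme that strengthens RNA interference), and 350 females of each genotype were raised alike for every pair of replicates. The groups differed in the third element, either the hairpin UAS-E93KK108140 or VIE-260B. The protocol text assigns the hairpin to the control, opposite to the sample titles, and the titles were followed here. The targeted gene *Eip93F* had 369, 399.6 and 377 CPM (counts scaled to a common library size, with TMM factors) in control replicates 1 to 3 and 349, 336 and 319 CPM in E93RNAi. All 3 libraries titled E93RNAi thus lay below the control libraries, as they did for 17.6% of all tested genes. The fall was small, at -0.19 in log2 units (adjusted p = 0.0119, edgeR quasi-likelihood test). A larger absolute change was seen in 32.2% of tested genes, so these values do not settle which group carried the hairpin. Gene counts summed to between 16639918 and 18400979 reads per library. The first principal component (80.3% of the variance) separated the groups, and the second (6.40%) set replicate 1 of both groups apart from replicates 2 and 3, so the main results that move without these libraries are given both ways. The labels call the replicates biological, and each library pools many animals.

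Of the 10 genes, 4 (40%) passed an adjusted p-value of 0.05 in the edgeR quasi-likelihood test, which 24.3% of all 9237 tested genes also did. *N* and *numb* rose in E93RNAi, where 13.8% of tested genes rose, and *Su(H)* and *mam* fell, where 10.5% of tested genes fell. These same 4 genes were the ones whose libraries did not overlap between groups, a state found for 37.5% of tested genes, 19.9% with E93RNAi above and 17.6% with E93RNAi below. A share of 10 genes is coarse, and that of the Notch genes was not read as departing from that of all genes. The median log2 fold change of the 10 genes was 0.0066, beside 0.0003 over all tested genes. Each of the 4 genes moved the same way in 3 of 3 same-numbered pairs, which follows from their libraries not overlapping and adds no separate support.

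**Figure D1:**
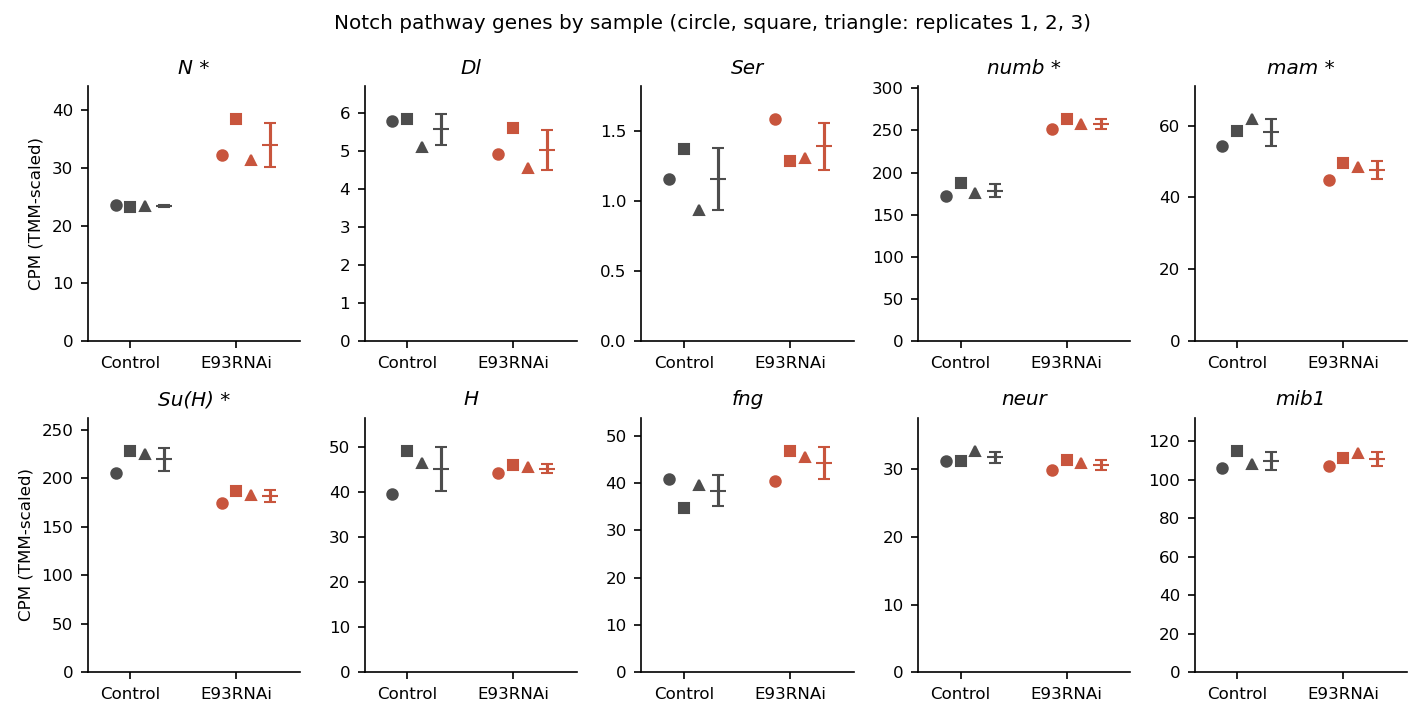
CPM of the 10 Notch pathway genes in each library (y axis, from 0), with control in grey and E93RNAi in red, symbols for replicates 1 to 3, and the mean with its SD (n = 3) at the right of each group. An asterisk marks the 4 genes past the threshold, *N*, *numb*, *mam* and *Su(H)*, whose red and grey points do not overlap.

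The receptor gene *N* (FBgn0004647) lies on the X chromosome at positions 3134870 to 3172221 of the plus strand (BDGP6.54), with 10150 bp of exon. It had 23.5, 23.1 and 23.5 CPM in control replicates 1 to 3 and 32.2, 38.4 and 31.4 CPM in E93RNAi replicates 1 to 3. The control libraries were nearly equal, whereas E93RNAi replicate 2 stood above the rest of its group. The gene rose 1.46-fold, from 23.4 ± 0.209 to 34.0 ± 3.83 CPM (SD, n = 3), which is 0.54 ± 0.079 (SE) in log2 units at an edgeR adjusted p of 0.000272. A larger absolute change was seen in 10.7% of all tested genes.

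*numb*, which encodes the membrane-associated inhibitor that is partitioned to one daughter cell, rose by a similar ratio from a higher level. The gene (FBgn0002973) lies on arm 2L at positions 9437469 to 9464184 of the plus strand, with 4916 bp of exon. It had 173, 187 and 176 CPM in control and 252, 263 and 257 CPM in E93RNAi, and the lowest E93RNAi library was well above the highest control library. The mean went from 178.6 ± 7.81 to 257.6 ± 5.51 CPM (SD, n = 3), which is 0.53 ± 0.045 (SE) in log2 units at an edgeR adjusted p of 2.80e-06. Of the 10 genes it had the lowest p-value, at rank 204 among the 9237 tested genes. The gain in *numb* was 0.55, 0.49 and 0.55 on the log2 scale in pairs 1 to 3, while that of *N* was 0.45, 0.73 and 0.42.

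The nuclear genes *Su(H)* and *mam* both fell. *Su(H)* (FBgn0004837, arm 2L, positions 15039488 to 15043334, plus strand, 2950 bp of exon) encodes the DNA-binding protein of the pathway. It had 206, 228 and 224 CPM in control and 175, 187 and 183 CPM in E93RNAi. Its mean fell from 219.6 ± 12.0 to 181.3 ± 6.11 CPM (SD, n = 3), which is -0.28 ± 0.049 (SE) in log2 units at an edgeR adjusted p of 0.00121. *mam* (FBgn0002643, arm 2R, positions 13991203 to 14060356, plus strand, 8869 bp of exon) encodes the coactivator Mastermind. It had 54.3, 58.4 and 61.8 CPM in control and 44.9, 49.6 and 48.4 CPM in E93RNAi, so the groups came close without overlapping. Its mean fell from 58.2 ± 3.78 to 47.6 ± 2.47 CPM (SD, n = 3), which is -0.29 ± 0.059 (SE) in log2 units at an edgeR adjusted p of 0.00327. Both falls were to about the same fraction of control, 0.826 for *Su(H)* and 0.819 for *mam*. More than 1 in 5 tested genes (22.7% and 21.6%) had a larger absolute change.

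*H* (FBgn0001169, arm 3R, positions 20621938 to 20628915, plus strand, 6004 bp of exon) encodes Hairless, the corepressor that binds Suppressor of Hairless. It had 39.7, 49.3 and 46.5 CPM in control and 44.2, 46.1 and 45.5 CPM in E93RNAi, with all 3 E93RNAi libraries inside the control range. Its log2 fold change was 0.0022 with a 95% interval from -0.15 to 0.16 (adjusted p = 0.989, edgeR). The lowest of the 6 libraries was control replicate 1.

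The ligand genes were the least counted of the 10. *Dl* (FBgn0000463, arm 3R, positions 19302731 to 19326217, minus strand, 5278 bp of exon) had 95, 102 and 93 reads in the control libraries against 84, 100 and 84 in E93RNAi. In CPM these were 5.78, 5.83 and 5.10 against 4.92, 5.59 and 4.55, lower in 3 of 3 pairs but overlapping between groups. The log2 fold change of -0.15 had a 95% interval from -0.45 to 0.15 (adjusted p = 0.508, edgeR). *Ser* (FBgn0004197, arm 3R, positions 27172090 to 27194267, minus strand, 5831 bp of exon) had 19, 24 and 17 reads in the control libraries against 27, 23 and 24 in E93RNAi. These overlapping values gave a log2 fold change of 0.27 with a 95% interval from -0.29 to 0.82 (adjusted p = 0.518, edgeR). At these counts a change of *Ser* as large as that of *N* lay within the interval and was not detectable.

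The ligases that act on the ligands showed smaller differences and narrower intervals. *neur* (FBgn0002932, arm 3R, positions 9020348 to 9039471, minus strand, 4309 bp of exon) had 31.3, 31.2 and 32.7 CPM in control and 29.9, 31.3 and 30.8 CPM in E93RNAi. Its log2 fold change was -0.05 with a 95% interval from -0.17 to 0.07 (adjusted p = 0.603, edgeR). An antisense gene, *asRNA:CR31429*, shares 1673 bp of exon with *neur* and was listed at 0 counts in all 6 libraries. *mib1* (FBgn0263601, arm 3L, positions 16006552 to 16011812, minus strand, 4095 bp of exon) had 106.3, 115.1 and 108.4 CPM in control and 107.0, 111.6 and 113.7 CPM in E93RNAi. *mib1* shares 48 bp of exon with *mRpS31* on the opposite strand, which was at 33.7 CPM in control and 31.6 CPM in E93RNAi. The log2 fold change of *mib1* was 0.01 with a 95% interval from -0.09 to 0.11 (adjusted p = 0.90, edgeR). Both intervals lay below the change measured for *N* and *numb*.

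*fng* encodes the glycosyltransferase Fringe, which modifies the Notch extracellular domain and shifts its response from Serrate towards Delta. The gene (FBgn0011591, arm 3L, positions 20925891 to 20949512, minus strand, 1959 bp of exon) had 40.9, 34.7 and 39.6 CPM in control and 40.5, 46.8 and 45.6 CPM in E93RNAi. E93RNAi replicates 2 and 3 were above every control library, and replicate 1 was not. The log2 fold change was 0.21 ± 0.073 (SE), with a 95% interval from 0.05 to 0.37, and edgeR gave it an adjusted p of 0.0602. The call depended on which libraries were used. Without control replicate 1 the change was 0.25 (adjusted p = 0.0443, edgeR), without E93RNAi replicate 1 it was 0.26 (adjusted p = 0.0166, edgeR), and without both it was 0.31 (adjusted p = 0.00670, edgeR). It also passed with library totals (0.23, adjusted p = 0.0398, edgeR) and without a filter on low counts (0.20, adjusted p = 0.0307, edgeR). With library totals the median over all tested genes was 0.0275. *fng* did not pass without control replicates 2 or 3 (0.14 and 0.23, adjusted p = 0.222 and 0.105, edgeR). Nor did it without E93RNAi replicates 2 or 3 (0.16 and 0.18, adjusted p = 0.196 and 0.167, edgeR). In DESeq2 the change was 0.20 (adjusted p = 0.104). *fng* shares 22 bp of exon with *CG10589* on the opposite strand, which was listed at 0 counts in all 6 libraries.

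**Figure D2:**
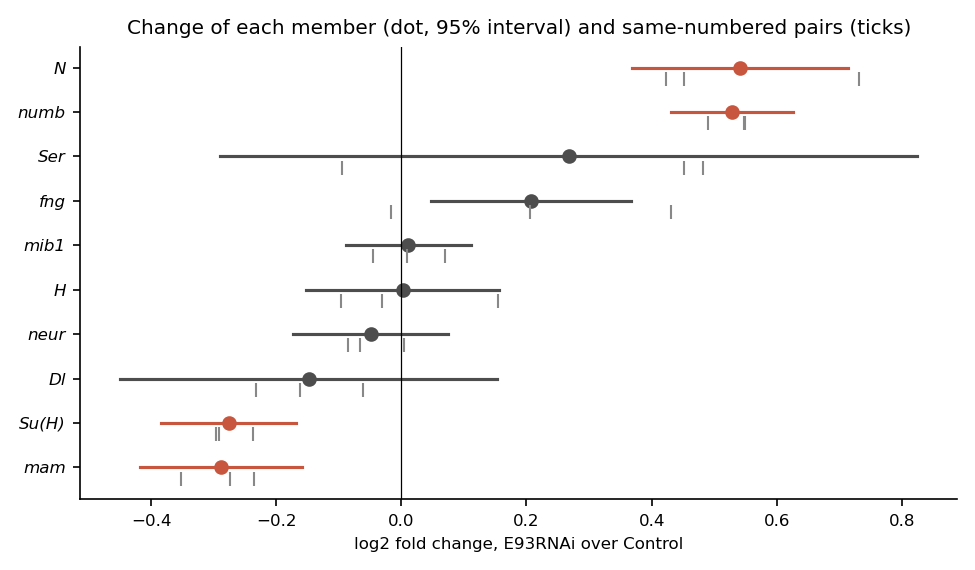
Log2 fold change of E93RNAi over control for each of the 10 genes (x axis), with the 95% interval of the edgeR fit as a line and the ratio of each same-numbered pair as grey ticks. Red marks genes past the threshold. *N* and *numb* lie near 0.54 and 0.53, *Su(H)* and *mam* near -0.28 and -0.29, and *Ser* has the widest interval, from -0.29 to 0.82.

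Ratios between members were then taken within each library, which removes the scaling between libraries. The pairs were chosen after the values had been seen and carry no test. The ratio of *numb* to *N* CPM was 7.33, 8.10 and 7.50 in control and 7.83, 6.85 and 8.18 in E93RNAi, and overlapped between groups. The ratio of *mam* to *Su(H)* was 0.264, 0.256 and 0.275 in control and 0.257, 0.266 and 0.265 in E93RNAi, and also overlapped. The ratio of *Su(H)* to *H* was 5.18, 4.64 and 4.83 in control and 3.95, 4.05 and 4.01 in E93RNAi, with every E93RNAi library below every control library. The ratio of *Dl* to *Ser* ranged from 4.25 to 5.47 in control and from 3.11 to 4.35 in E93RNAi, and that of *mib1* to *neur* from 3.31 to 3.69 and from 3.57 to 3.69. Both overlapped.

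Levels between genes were compared as CPM per kilobase of exon. In control, *Su(H)* was highest at 74.4 ± 4.08, followed by *numb* at 36.3 ± 1.59, *mib1* at 26.8 ± 1.12 and *fng* at 19.6 ± 1.66 CPM per kb (SD, n = 3). *H*, *neur* and *mam* followed at 7.52 ± 0.818, 7.36 ± 0.198 and 6.56 ± 0.426 CPM per kb, and the control range of *H* overlapped those of *neur* and *mam*. The place of *neur* is uncertain, as 1673 bp of its exon lie opposite *asRNA:CR31429* and whether counting used strand is not given. *N* was at 2.30 ± 0.0206, *Dl* at 1.05 ± 0.0776 and *Ser* at 0.198 ± 0.0377 CPM per kb. The receptor and its ligands were thus the lowest 3 of the 10 in adult antennae. The order by mean was the same in E93RNAi, where *numb* (52.4 ± 1.12 CPM per kb) came closer to *Su(H)* (61.5 ± 2.07 CPM per kb; SD, n = 3).

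**Figure D3:**
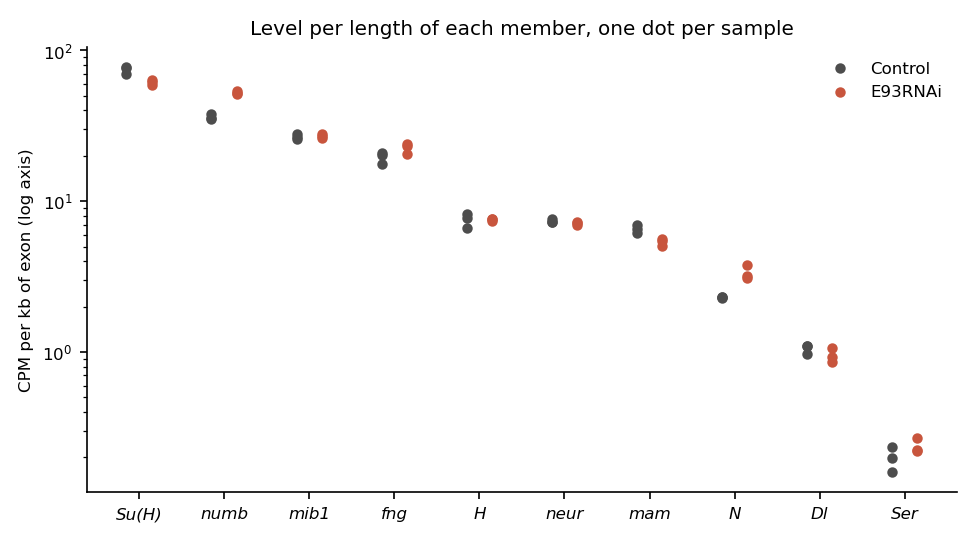
Level of each gene in CPM per kilobase of exon (log axis), 1 dot per library, control in grey and E93RNAi in red, ordered by the control mean. Levels run from *Su(H)* at 74.4 in control to *Ser* at 0.198, and *numb* is the gene that moves closest to *Su(H)* in E93RNAi.

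A wider list of 92 pathway genes was read from the same fit to place the 10 members. Counts were found for 90 of these. Of the 64 that could be tested, 12 (18.8%) passed the threshold, beside 24.3% of all tested genes, 6 rising and 6 falling, with a median log2 fold change of 0.007. Without both replicates 1, 15 of 65 tested genes passed, 5 rising and 10 falling, and 11 of the 12 were among them. The list for ligand endocytosis and receptor glycosylation, which also holds *Kul*, *Cont* and *wry*, had 9 tested genes and no call. Its most abundant genes were *shi* (dynamin), at 468 ± 4.04 CPM in control and 449.8 ± 12.7 CPM in E93RNAi, and *lqf* (epsin), at 336 ± 5.93 and 336 ± 2.11 CPM (SD, n = 3). The receptor cleavage list, which holds the protease *kuz* and the gamma-secretase subunits *Psn*, *nct*, *aph-1* and *pen-2*, had 10 tested genes and no call. The furin genes *Fur2* (362 ± 16.7 and 344 ± 10.9 CPM) and *Fur1* (342 ± 7.63 and 354 ± 28.9 CPM; SD, n = 3) were the most abundant there. The nuclear cofactor list had 9 tested genes and no call, with *CtBP* at 319 ± 17.4 and 313 ± 3.73 CPM and *Nipped-A* at 232 ± 8.74 and 227 ± 16.5 CPM (SD, n = 3). Over these 3 lists, 28 genes had log2 fold changes between -0.07 and 0.17, with 1 at an unadjusted p under 0.05 in edgeR and 0 called by DESeq2. With the replicate number as a block, *Psn* passed at 0.15 in log2 units (edgeR adjusted p = 0.0426, against 0.101 without it).

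The list for trafficking and asymmetric division had 15 tested genes, of which 3 rose and 1 fell, beside 13.8% and 10.5% of all tested genes. *insc*, which encodes the adaptor Inscuteable of dividing neural precursors, had 4.44, 3.66 and 4.0 CPM in control and 8.37, 6.87 and 6.40 CPM in E93RNAi. It rose 1.79-fold (0.84 ± 0.15 SE in log2 units, edgeR adjusted p = 0.00115). It shares 359 bp of exon with *sktl* on the same strand, and reads there may have been set aside as ambiguous. *brat*, a translational repressor that limits growth of one daughter cell, rose by 0.24 in log2 units (edgeR adjusted p = 0.0154). *l(2)gl*, a cortical polarity gene, rose by 0.13 in log2 units (edgeR adjusted p = 0.0362). The calls of both were marginal. *brat* had adjusted p-values of 0.0554, 0.0826, 0.0557 and 0.0569 in edgeR without control replicates 1 and 3 and E93RNAi replicates 1 and 2, respectively, and 0.102 without both replicates 1, at log2 fold changes of 0.17 to 0.22. *l(2)gl* had 0.0674, 0.0838 and 0.136 without control replicates 1, 2 and 3 and 0.163 and 0.0641 without E93RNAi replicates 2 and 3 in edgeR, 0.0560 in edgeR without the filter on low counts, and 0.0896 in DESeq2, at log2 fold changes of 0.10 to 0.14. *Nedd4*, a ubiquitin ligase that directs Notch to degradation, fell from 328 ± 5.81 to 289 ± 7.26 CPM (SD, n = 3; -0.18 ± 0.041 SE in log2 units, edgeR adjusted p = 0.00551). *Nak*, a kinase linked to Numb, was the most abundant of the list at 368 ± 13.9 and 369.7 ± 29.4 CPM. *brat* and *Nedd4* each overlap genes on the opposite strand, and whether counting used strand is not given in the sources used here.

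**Figure D4:**
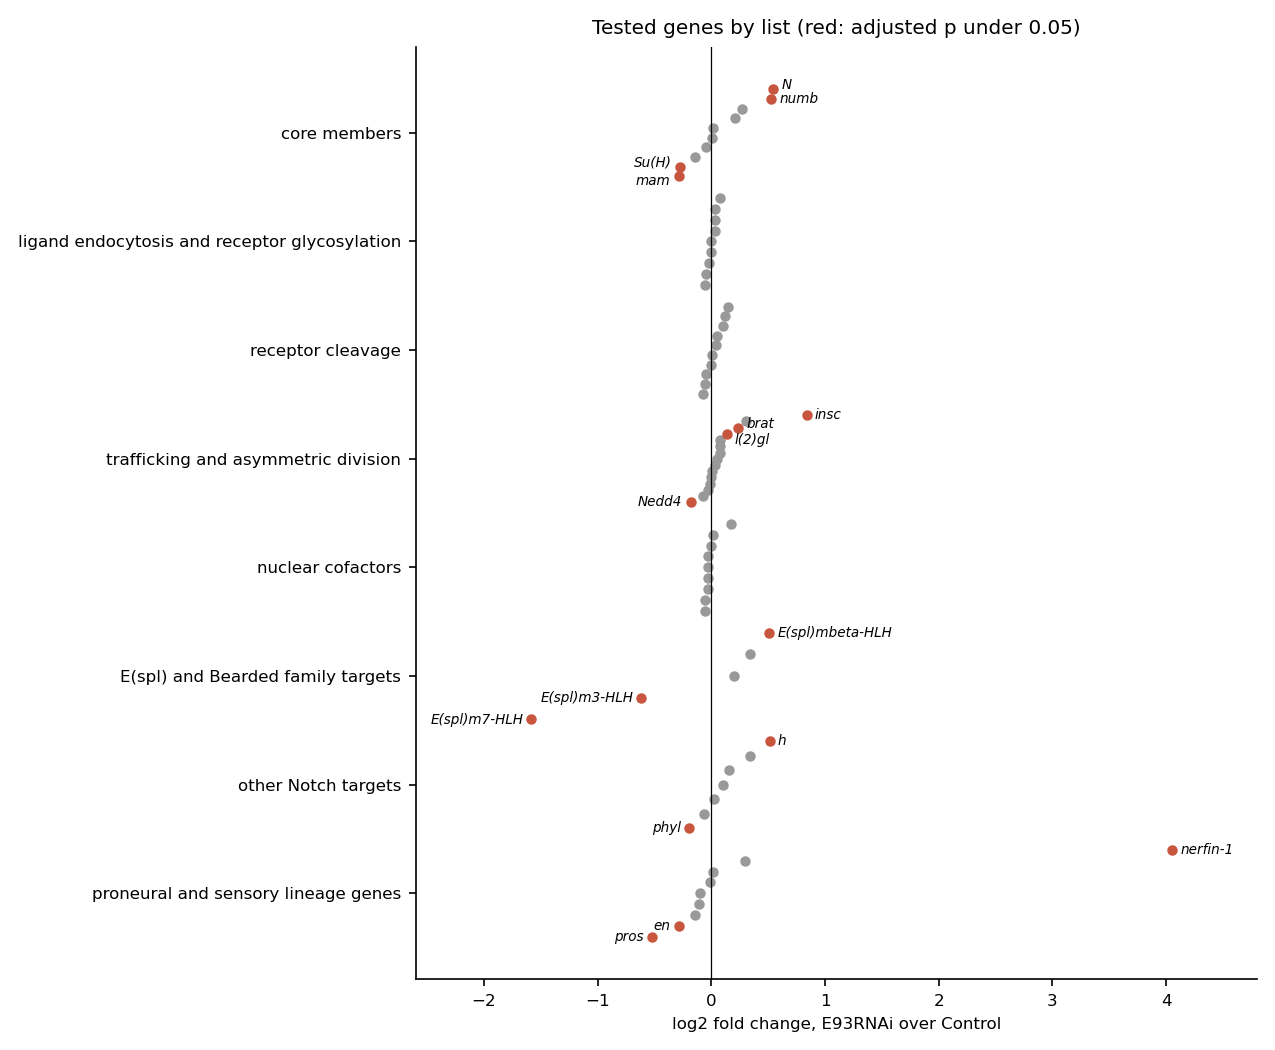
Log2 fold change of E93RNAi over control (x axis) for every tested gene of the 10 core members and of the 7 wider lists, 1 dot per gene, with red for an adjusted p-value under 0.05. The 3 lists without red dots lie between -0.07 and 0.17, and *nerfin-1* stands alone at 4.05.

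Target genes of the Enhancer of split complex moved in both directions. Of 18 listed genes of the complex and its Bearded relatives, 16 were matched and 5 were counted highly enough to be tested. Of these 5 genes, 3 passed the threshold, beside 24.3% of all tested genes. *E(spl)mbeta-HLH*, a basic helix-loop-helix repressor gene, had 8.82, 8.06 and 7.78 CPM in control and 12.1, 9.94 and 13.01 CPM in E93RNAi, a rise of 0.51 ± 0.12 (SE) on the log2 scale (adjusted p = 0.00633, edgeR). *E(spl)m3-HLH*, a repressor gene of the same family, went the other way, from 12.8, 13.9 and 13.7 CPM to 6.5, 9.55 and 10.3 CPM. It fell by 0.61 in log2 units (edgeR adjusted p = 0.00576), and its control libraries all lay above its E93RNAi libraries. *E(spl)m7-HLH* had 20, 28 and 26 reads in the control libraries against 10, 2 and 13 in E93RNAi, which is -1.58 ± 0.41 (SE) in log2 units at an edgeR adjusted p of 0.0140. Without control replicate 3 its adjusted p-value was 0.0502 in edgeR at a log2 fold change of -1.58. The other tested members, *E(spl)malpha-BFM* and *E(spl)m2-BFM*, did not pass. Of the 11 untested members, *E(spl)mgamma-HLH*, *BobA*, *Brd* and *Ocho* had 0 counts in all libraries, and none of the 11 had more than 6 counts in any library.

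Among 11 other genes listed as targets, 7 were tested, 1 rose and 1 fell, beside 13.8% and 10.5% of all tested genes. Whether any of these 11 genes responds to Notch in adult antennae was not tested. *h* (*hairy*, listed as *hry*), another repressor of the same protein class, had 143, 128 and 121 CPM in control and 185, 182 and 192 CPM in E93RNAi. It rose 1.43-fold (0.51 ± 0.057 SE in log2 units, edgeR adjusted p = 2.96e-05), a ratio close to those of *N* and *numb*. *phyl*, which encodes an adaptor for protein breakdown in sensory precursors, fell from 99.2 ± 2.12 to 86.5 ± 4.87 CPM (SD, n = 3; adjusted p = 0.0101, edgeR). *ct*, a homeobox gene of external sense organs, was at 107 ± 7.73 CPM in control and 102 ± 5.87 CPM in E93RNAi.

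Genes that start or mark the sensory lineage were divided in these adult antennae between 9 of 18 with too few counts to be tested, none above 13 counts in any library, and 9 that were tested. The proneural gene *ac* and the precursor gene *sens* had 0 counts in every library, and *ato*, which founds part of the olfactory sensilla, had at most 1 count. Of the 9 tested, 1 rose and 2 fell, beside 13.8% and 10.5% of all tested genes. *nerfin-1*, a zinc-finger gene of young neurons, had 10, 7 and 6 reads in the control libraries against 156, 120 and 119 in E93RNAi. It rose 16.6-fold, from 0.446 ± 0.145 to 7.43 ± 1.48 CPM (SD, n = 3; 4.05 ± 0.26 SE in log2 units, edgeR adjusted p = 2.31e-07). *pros*, which encodes a homeodomain factor of sheath cells, had 137, 166 and 160.3 CPM in control and 104, 112 and 107 CPM in E93RNAi, which is -0.52 ± 0.065 (SE) in log2 units at an edgeR adjusted p of 7.40e-05. A long noncoding gene lies on the opposite strand of *pros*. *en* (*engrailed*, a homeobox gene) fell by 0.28 in log2 units (edgeR adjusted p = 0.0134). Leaving out control replicate 3 moved its edgeR adjusted p to 0.0731. The most abundant genes of the list, *ss* (615 ± 42.0 and 556 ± 27.4 CPM) and *emc* (279.9 ± 4.75 and 283 ± 3.09 CPM; SD, n = 3), did not pass, although *ss* passed with the replicate block (edgeR adjusted p = 0.0120, against 0.0874 without it) and in DESeq2 (adjusted p = 0.0459).

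**Figure D5:**
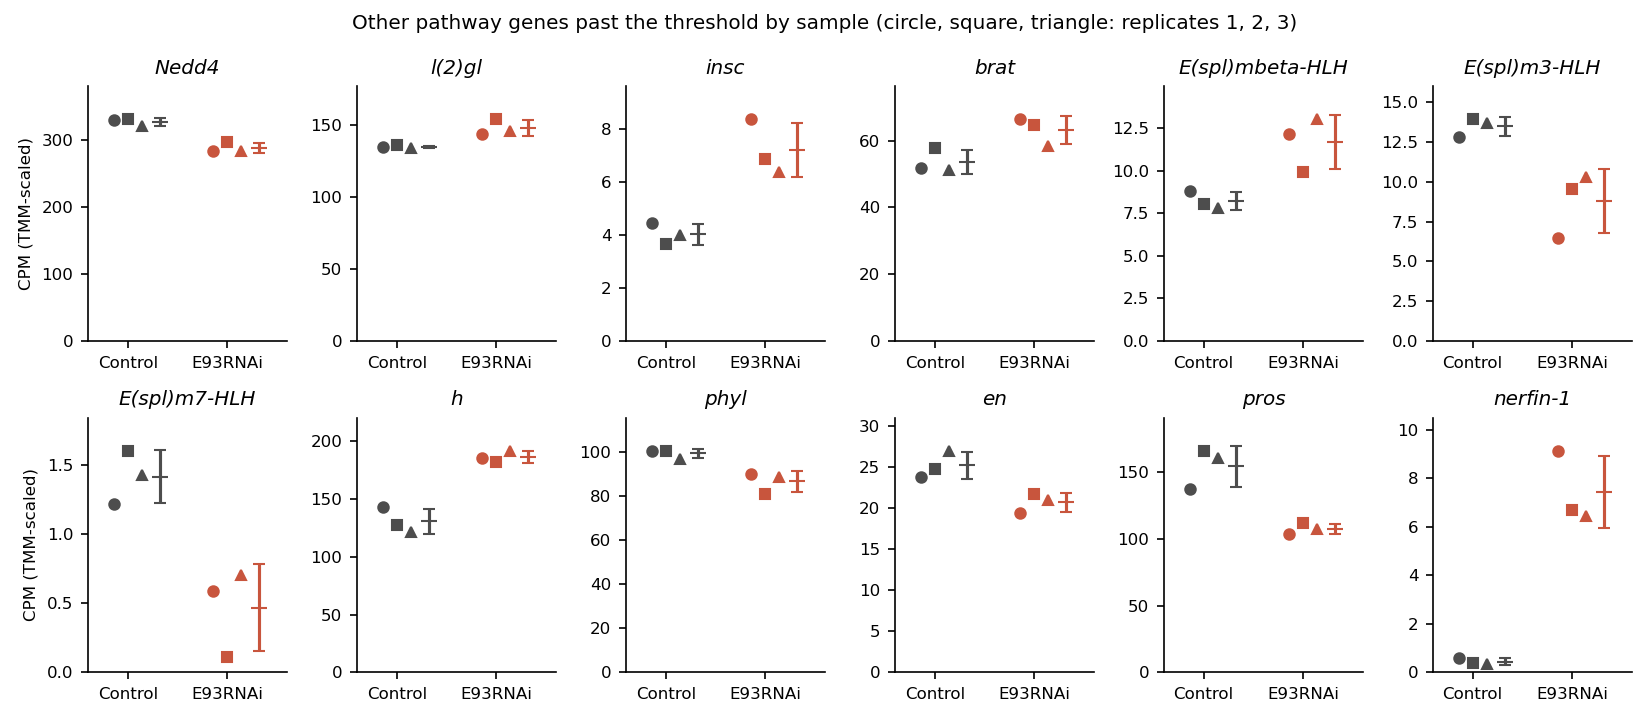
CPM in each library (y axis, from 0) of the 12 other pathway genes past the threshold, control in grey and E93RNAi in red, symbols for replicates 1 to 3, with the mean and SD (n = 3) beside each group. *nerfin-1* goes from at most 0.608 CPM in control to at least 6.45 CPM in E93RNAi, and *E(spl)mbeta-HLH* and *E(spl)m3-HLH* move in opposite directions.

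Markers of the cell types of the antenna moved beside these genes. Of 33 tested markers of these and other cell types, 20 passed the threshold, 13 rising and 7 falling, beside 24.3% of all tested genes. In bulk antennal RNA, fewer cells of a type and less RNA per cell cannot be told apart. *Su(H)* is itself a gene of socket cells, the support cells that form the base of a sensory hair. In the socket and shaft list 2 of 3 genes fell, *Su(H)* and *Sox15*, another socket cell gene. *Sox15* fell from 112 ± 6.52 to 92.0 ± 4.21 CPM (SD, n = 3), which is -0.28 in log2 units (edgeR adjusted p = 0.00180) beside the -0.28 of *Su(H)*. Without *Su(H)*, the summed level of *Sox15* and *sv* was 298 to 303 CPM in control and 262 to 273 CPM in E93RNAi. In the sheath list *pros* fell and *nompA*, a gene for an extracellular cap protein, rose from 7.29 ± 0.181 to 68.4 ± 5.53 CPM (SD, n = 3; adjusted p = 3.11e-11, edgeR), with summed levels of 144 to 173 and 166 to 185 CPM. Of 5 odorant-binding protein genes, whose products support cells secrete, 3 rose and 0 fell, with summed levels of 23836 to 24412 CPM in control and 27945 to 30062 CPM in E93RNAi. With the replicate block *Obp83b* also rose and *Obp19a* fell (edgeR adjusted p = 0.0163 and 0.0205). The part of these shifts in the results for the Notch genes was not tested.

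Neuronal and glial markers are set beside *N* and *numb* for the same reason. Of 6 neuron markers 2 fell, the olfactory coreceptor genes *Orco* (log2 fold change -0.20) and *Ir25a* (-0.30), while *elav*, *nSyb*, *Syt1* and *brp* did not pass in edgeR. The summed level of the 6 was 5588 to 5756 CPM in control and 5038 to 5249.6 CPM in E93RNAi. Most of this sum was *Orco*, which went from 3314 ± 53.6 to 2888 ± 40.0 CPM (SD, n = 3). All 5 glial markers passed, with *repo*, *moody* and *Eaat1* higher (log2 fold changes 0.39, 0.37 and 0.67) and *Gs2* and *Gat* lower (-0.23 and -0.44), and summed levels of 2946 to 3070.0 and 2611 to 2652 CPM. *Gs2* alone went from 2749.8 ± 49.7 to 2344 ± 29.5 CPM (SD, n = 3), so the sum follows that gene and not the 3 that rose. Of 3 tested Johnston's organ markers 2 rose. The channel gene *nompC* rose 6.51-fold, from 7.87 ± 0.776 to 51.4 ± 5.65 CPM (SD, n = 3, edgeR adjusted p = 1.55e-09), and *eys* rose from 140.1 ± 2.76 to 164 ± 12.7 CPM (edgeR adjusted p = 0.00823). *iav* had a log2 fold change of -0.55 and did not pass (edgeR adjusted p = 0.355). The summed level of the 4 listed genes, most of it *eys*, was 148 to 152 CPM in control and 199 to 230.2 CPM in E93RNAi. Lists for cells outside the sensilla were low or uneven. Muscle markers summed to 2.11 to 3.83 CPM in control and 1.96 to 19.7 CPM in E93RNAi, hemocyte markers to 22.4 to 26.3 and 29.2 to 39.2 CPM, fat body markers to 104 to 117 and 97.4 to 114 CPM, and photoreceptor markers to 7.34 to 8.27 and 13.7 to 15.4 CPM. In these 4 lists 4 genes rose in all, *Mhc*, *Pxn*, *trp* and *ninaC*. The hemocyte sum rose with *Pxn*, which went from 6.83 ± 1.52 to 18.9 ± 6.03 CPM (SD, n = 3). The other hemocyte genes, *Hml* and *NimC1*, had log2 fold changes of -0.26 and -0.18 and did not pass. Most of the fat body sum was *apolpp*, at 109.6 ± 4.78 and 101 ± 7.40 CPM (SD, n = 3). *Mhc* was uneven, at 12.0, 1.23 and 12.0 CPM in E93RNAi, and its call was lost in limma voom (adjusted p = 0.201), in DESeq2 (adjusted p = 0.0840) and in edgeR without control replicates 2 or 3 or E93RNAi replicate 3 (adjusted p = 0.0571, 0.0586 and 0.0695). Its log2 fold change was 2.36, and 1.97 to 2.87 over the alternatives. No marker was at 0 in all 6 libraries. The photoreceptor opsin gene *ninaE* had at most 5 counts in any library. Whether these cells contribute to the change of any Notch gene was not tested.

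Genes with the most similar course over the 6 libraries were sought for the pair of members with the lowest p-values, as the root-mean-square distance of log2 CPM after centring each gene. For *numb* the nearest were *Imp* (distance 0.0302), *CG9265* (0.0421) and *Ubi-p63E* (0.0428). For *N* they were *Mdr65* (0.0425), *Map205* (0.0558) and *cv-c* (0.0591). With 2 groups of 3 libraries this measure mostly finds genes with a similar ratio, and the log2 fold changes of these 6 genes were 0.48 to 0.54.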

How the data were processed

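Each of the 6 deposited files holds the counts of 1 library, as unnormalized whole numbers per gene. Per the submitters' processing notes, cutadapt 1.8, STAR 2.5.3a, HTSeq 0.9.1 and the build BDGP6 were used; the annotation release and the strand setting are not given in the sources used here. Summary lines for reads in no gene took 13.1% to 13.8% of listed reads and were left out. Symbols matched 17560 of 17698 identifiers. Positions and exon lengths come from Ensembl release 115 (BDGP6.54).

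Counts were filtered with filterByExpr, scaled by TMM and tested on the group alone with edgeR 4.0.16 (limma 3.58.1, R 4.3.3) over 9237 genes, with Benjamini-Hochberg adjustment over all of them. DESeq2 1.42.0 and limma voom were alternatives. Positive log2 changes mean more RNA in E93RNAi, with SE from the quasi-likelihood F statistic. The number of reads limits the precision of low genes such as *Ser*. The fits were tested on simulated data.

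Members and lists were chosen with earlier results of these data known. The text names all 10 members, up to 30 other pathway genes past the threshold by adjusted p-value, the 2 most abundant genes of each list, and the 3 genes nearest to each of the 2 members with the lowest p-values. *BobB* and *BobC* were not matched. Replicate numbers were taken to pair the libraries, as the treatment protocol speaks of pairs of replicates. Deviations from the group means correlated at 0.154, 0.128 and 0.123 across 8103 genes in same-numbered libraries. In differently numbered ones they correlated at -0.115 to 0.00196, and centring on group means makes these values depend on each other. The main fit did not use the pairing, which entered only the alternatives with a replicate block.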

Additional observations from a re-analysis of the deposited data

How the results depend on the processing

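Over 19 alternatives, of which leaving out both replicates 1 was chosen after the data were examined, *N*, *numb*, *mam* and *Su(H)* kept their direction and passed the threshold in every one, with log2 fold changes of 0.44 to 0.60, 0.50 to 0.56, -0.34 to -0.24 and -0.32 to -0.25. The count of changed Notch genes was 4 to 5, the fifth being *fng*, and 4 with the replicate block, under which 2430 genes were called in all. The block changed no call among the 10 genes. A threshold of 0.01 left 1482 of 2248 genes and 7 of 12 other pathway genes. Leaving out 1 library in turn gave 1711 to 2155 genes and 8 to 11 other pathway genes. Uncalled values near 0 changed sign. *H* was at -0.0030 with DESeq2 size factors, -0.0045 with upper-quartile scaling, -0.0024 with DESeq2, -0.0019 without a filter, -0.0045 with length correction, -0.0021 with length correction and the replicate block, and -0.069 without both replicates 1, and ranged from -0.082 to 0.066 when each library was left out. *mib1* ranged from -0.014 to 0.043 in the same fits. The cause was not tested. Low counts limit *Dl*, *Ser* and *E(spl)m7-HLH*.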

Other observations

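Genes below the filter on low counts were not tested in the main fit, although the summed levels of the marker lists include them. *wry*, from the ligand endocytosis and glycosylation list, had 1, 2 and 0 reads in the control libraries against 6, 8 and 6 in E93RNAi. *spdo*, which encodes a membrane protein that acts with Numb on Notch in dividing precursors, had 1, 3 and 1 reads in the control libraries against 5, 2 and 8 in E93RNAi.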
